A study of Rattus norvegicus with 15 samples.

Results

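The ERK pathway feedback genes described here are 10 genes whose transcripts are raised by signalling through the extracellular signal-regulated kinases ERK1 and ERK2, and most of whose products act back on that pathway. They were taken as a list by gene symbol: 4 dual-specificity phosphatases (DUSP1, DUSP4, DUSP5 and DUSP6), 3 Sprouty genes (SPRY1, SPRY2 and SPRY4), SPRED1, and 2 ETS transcription factors of the PEA3 family (ETV4 and ETV5). All 10 were among the 17463 gene symbols of the count table, and all 10 were among the 11665 genes kept by the filter on low counts. Poly(A)-selected RNA from NMU-induced mammary tumours of Fischer rats was sequenced in 15 libraries, 9 labelled midkine and 6 labelled vehicle. Rats of the midkine group received midkine protein, a secreted heparin-binding growth factor, at a dose of 300 ug/kg 3 times weekly, over the 2 weeks that preceded each NMU injection. NMU (N-nitroso-N-methylurea) is an alkylating carcinogen that induces mammary tumours in rats, and it was given intraperitoneally at 50 mg/kg on 2 occasions. Rats of the vehicle group received vehicle without midkine. No source used here gives the age of the rats or the make-up of the vehicle, and each library came from a small ground piece of tumour.

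Growth factor receptors on mammary epithelial cells activate RAS, which starts a kinase cascade from RAF through MEK to ERK. Active ERK enters the nucleus, where it raises transcription of immediate early genes, of PEA3 factors and of inhibitors that then dampen the cascade. The phosphatases take phosphate off ERK or its relatives, while Sprouty and SPRED proteins act nearer to the receptor and RAS. The roles given for each gene come mainly from work in human and mouse cells.

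Library totals ranged from 4925504 to 8486523 counts, with a median of 7252603, and between 13056 and 13665 genes had at least 1 count. Levels are given as CPM, a gene's count as a rate per unit of library total, with totals scaled by trimmed mean of M-values (TMM). Some libraries stood apart. Skeletal muscle transcripts were abundant in midkine 1, where MYH4, a fast muscle myosin, took 55760 CPM before TMM scaling. MYH4 had at most 1 count in midkine 3-1, 3-2, 4-1, 4-2 and 4-3, while the other 4 midkine libraries and all 6 vehicle libraries carried MYH4 reads. No label names a batch, so results are also given within the 10 libraries with MYH4 reads and without midkine 3-2, which stood apart for several of the genes. Libraries that share the number before the hyphen (midkine 3-1 and 3-2, midkine 4-1 to 4-3, vehicle 2-1 and 2-2) may come from 1 animal, which the labels leave unstated, so p-values reflect only how these libraries scatter, and some of that scatter may be technical. In bulk tissue, fewer cells that express a gene and less RNA per cell cannot be told apart.

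None of the 10 genes differed between midkine and vehicle tumours past the threshold of 0.05 on the adjusted p (edgeR quasi-likelihood F test, Benjamini-Hochberg over all genes). The share over all genes was 0%, or 0 of 11665, and the smallest adjusted p of any gene was 0.399. Of the 10, 3 were higher and 7 lower in midkine tumours, whereas 44.3% of all genes were lower. This split moved with single libraries: 5 were lower without midkine 1, likewise 5 without midkine 5, and 9 without midkine 3-2. Their median log2 fold change (midkine over vehicle throughout) was -0.18, against 0.040 over all genes, with -0.43 without midkine 3-2, -0.12 without midkine 5 and -0.091 without vehicle 6. At an unadjusted p under 0.05, only DUSP1 of the 10 was higher and none was lower, beside 7.96% of all genes higher and 2.13% lower. The exact permutation of mean log2 CPM over all 5005 ways to divide the libraries also gave 1 of the 10 at p under 0.05, again DUSP1, beside 5.32% of all genes. DESeq2 called none of the 10 at an adjusted p under 0.05, beside 0.662% of the 13897 genes it tested, which is 92 genes. For none of the 10 were the midkine and vehicle libraries fully separated, as they were for 2 genes in all (0.0171%).

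**Figure D1:**
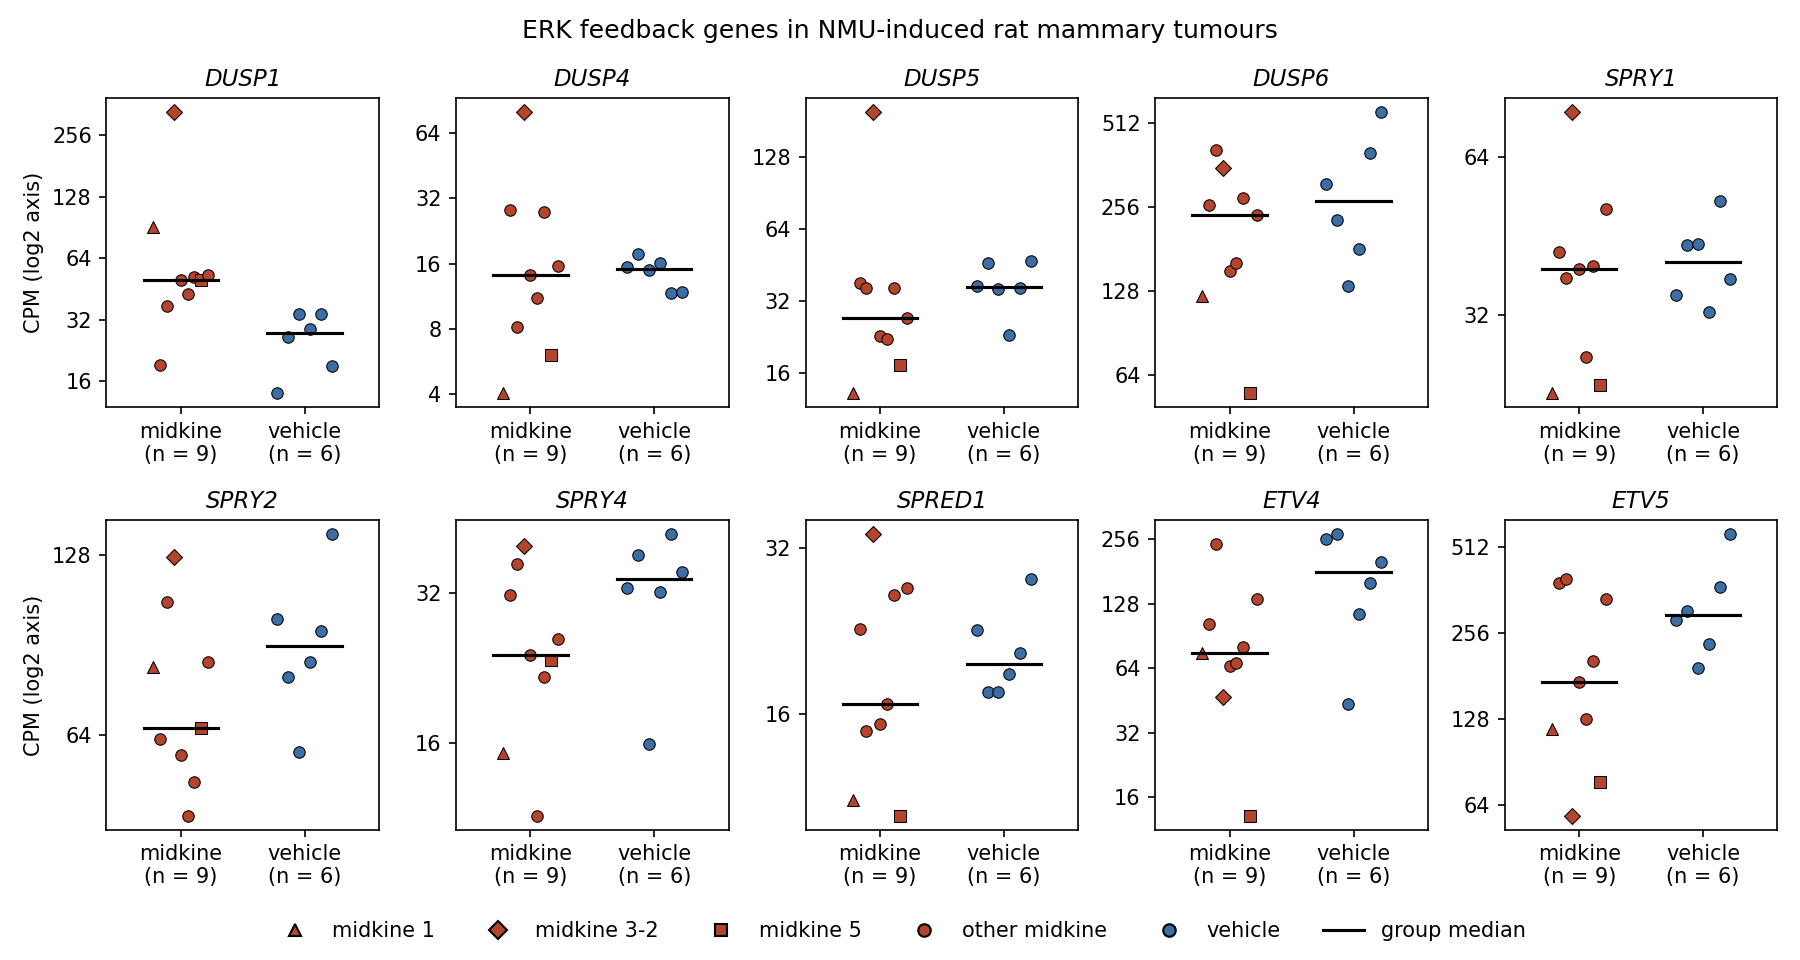
CPM of each gene (log2 axis) in 9 midkine libraries (left, red) and 6 vehicle libraries (right, blue), with the group median as a line; the triangle is midkine 1, the diamond midkine 3-2 and the square midkine 5. DUSP1 was above the highest vehicle library in 8 midkine libraries, and the diamond lies far above all other points for DUSP1, DUSP4 and DUSP5.

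Of the 4 phosphatases among the 10 genes, only DUSP1 had most midkine libraries above the vehicle range. This was not particular to DUSP1 among all dual-specificity phosphatases looked at. The midkine median also exceeded the highest vehicle library for DUSP2 (11.1 against 7.93 CPM), DUSP3 (49.5 against 49.0 CPM) and DUSP7 (79.0 against 74.5 CPM). DUSP1 encodes a nuclear phosphatase that acts on p38 and JNK as well as on ERK, and the gene is itself an immediate early gene that growth factors and stress switch on within minutes. Its level ran from 19.1 CPM through a median of 50.2 CPM to 332 CPM in midkine tumours, and from 13.9 CPM through 27.6 CPM to 34.2 CPM in vehicle tumours. In 8 of 9 midkine libraries DUSP1 exceeded the highest vehicle library, which held for 0.240% of all genes, and midkine 2, at 19.1 CPM, was the exception. The means were 80.8 ± 96.2 CPM in midkine tumours and 26.1 ± 8.19 CPM in vehicle tumours (SD, n = 9 and n = 6). The log2 fold change was 1.63 (SE 0.54), with an adjusted p of 0.399 in edgeR and of 0.0867 in DESeq2, and the exact permutation p was 0.0184. Midkine 3-2 alone held 332 CPM, and without it the log2 fold change was 0.92 (SE 0.29), with an exact permutation p of 0.0167. The next highest library was midkine 1, at 91.2 CPM. Without midkine 1 and 3-2 together the log2 fold change was 0.74 (SE 0.26). Within the 10 libraries with MYH4 reads it was 1.05 (SE 0.38), with an exact permutation p of 0.0714. Without vehicle 2-1, the lowest library, the exact permutation p was 0.0535.

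The DUSP1 promoter is printed because this gene stood apart from the others in its difference between groups and in how it varied, and those of DUSP6 and ETV5 because their levels followed each other. Each sequence is the RefSeq window of 250 bases before to 50 bases after a transcript start, written 5′ to 3′ on the gene's own strand. Capitals mark GGAA, the core that ETS factors bind, read on either strand (TTCC on the reverse), and TGACGTCA, the full cyclic AMP response element; TGACTCA, the AP-1 element, was also searched and has no match in them.
DUSP1 promoter, chr10:17184603-17184902, + strand, GRCr8: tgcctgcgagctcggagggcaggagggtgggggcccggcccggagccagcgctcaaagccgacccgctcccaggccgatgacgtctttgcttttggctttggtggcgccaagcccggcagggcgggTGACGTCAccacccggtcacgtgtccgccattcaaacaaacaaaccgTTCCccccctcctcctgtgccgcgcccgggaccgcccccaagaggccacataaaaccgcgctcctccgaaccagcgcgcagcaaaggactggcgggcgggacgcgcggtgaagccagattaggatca
DUSP6 promoter, chr7:35979354-35979653, + strand, GRCr8: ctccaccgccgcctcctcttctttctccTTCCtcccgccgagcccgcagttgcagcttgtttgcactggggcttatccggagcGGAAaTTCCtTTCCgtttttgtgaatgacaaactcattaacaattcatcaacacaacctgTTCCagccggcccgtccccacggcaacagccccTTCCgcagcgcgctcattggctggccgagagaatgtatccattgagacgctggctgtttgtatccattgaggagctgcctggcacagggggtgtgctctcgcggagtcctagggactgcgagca
ETV5 promoter, chr11:92113013-92113312, + strand, GRCr8: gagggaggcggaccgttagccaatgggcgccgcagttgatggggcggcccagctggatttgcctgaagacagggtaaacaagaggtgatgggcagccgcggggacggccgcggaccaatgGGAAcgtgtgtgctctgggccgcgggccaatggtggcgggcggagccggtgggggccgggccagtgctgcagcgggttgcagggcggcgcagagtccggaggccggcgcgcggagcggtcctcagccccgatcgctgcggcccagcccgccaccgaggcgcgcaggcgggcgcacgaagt
The window table held 8 of the 10 genes, with 9 windows in all since SPRY2 has 2. TGACGTCA was present in the DUSP1 window and in no other of the 9, and 1.83% of all 33469 rat promoter windows held it. GGAA occurred on either strand 6 times in the DUSP6 window and once in each of the other 2 printed, beside a median of 3 and a share of 95.8% of all windows. The longer AGGAAG, which contains GGAA, was found in the DUSP5 and DUSP6 windows, beside 34.5% of all windows, and TGACTCA was in none of the 9, beside 4.63%. These are matches of letters on both strands and not measured sites. The counts were made on the build rn6, so no position was carried between builds.

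DUSP4, DUSP5 and DUSP6 remove phosphate from ERK in different parts of the cell: DUSP4 and DUSP5 in the nucleus and DUSP6, which is highly selective for ERK, in the cytoplasm. For all 3 the midkine libraries spread over a wider range than the vehicle libraries at the low end. The midkine group had more libraries, so the ranges are not directly comparable. A wider midkine spread was also seen in the background: the median SD of log2 CPM over all genes kept was 0.57 in midkine and 0.32 in vehicle tumours. The SD in midkine and vehicle tumours was 1.28 and 0.24 for DUSP4, 1.11 and 0.37 for DUSP5, and 0.89 and 0.76 for DUSP6. DUSP4 ranged from 4.05 CPM through a median of 14.1 CPM to 79.6 CPM in midkine tumours, and from 11.7 CPM through 15.2 CPM to 17.6 CPM in vehicle tumours. Of the midkine libraries, 3 were above the vehicle range and 4 below it, so that the groups differed in spread more than in their middle. The log2 fold change of DUSP4 was 0.57 (SE 0.53; edgeR adjusted p = 0.778), and without midkine 3-2 it was -0.020 (SE 0.38).

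DUSP5 ranged from 13.1 CPM through a median of 27.0 CPM to 197 CPM in midkine tumours, and from 23.0 CPM through 36.4 CPM to 46.9 CPM in vehicle tumours. Midkine 3-2 lay above every other library, while 7 of 9 midkine libraries lay below the vehicle median. The direction of the mean difference rested on that library. In edgeR the log2 fold change came to 0.28 (SE 0.51, adjusted p = 0.897) with it and -0.49 (SE 0.24) without it. The exact permutation p was 0.697 with that library and 0.0576 without it. DESeq2 replaced its count of 1611 by 250 as an outlier and gave a log2 fold change of -0.45 (adjusted p = 0.513).

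DUSP6 ranged from 55.0 CPM through a median of 239 CPM to 411 CPM in midkine tumours, and from 133 CPM through 270.1 CPM to 561 CPM in vehicle tumours. The groups overlapped widely: midkine 1 and midkine 5 lay below the vehicle range, and no midkine library lay above it. Its log2 fold change was -0.42 (SE 0.39; edgeR adjusted p = 0.774). It was -0.29 (SE 0.34) without midkine 5 and -0.15 without vehicle 6, the highest library.

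The Sprouty and SPRED proteins act between the receptor and RAF: Sprouty proteins are phosphorylated adaptors that restrain growth factor signalling to RAS and RAF, and SPRED1 binds neurofibromin, which switches RAS off, and brings it to the plasma membrane. Their levels varied less than those of the phosphatases, and the fitted differences were small. SPRY1 ranged from 22.6 CPM through a median of 39.1 CPM to 78.0 CPM in midkine tumours, and from 32.4 CPM through 40.4 CPM to 52.7 CPM in vehicle tumours. SPRED1 ranged from 10.5 CPM through 16.7 CPM to 33.8 CPM in midkine tumours, and from 17.5 CPM through 19.8 CPM to 28.0 CPM in vehicle tumours. For both genes midkine 3-2 was the highest of the 15 libraries and the lowest libraries were midkine 1 and midkine 5. The log2 fold change was -0.024 (SE 0.25; edgeR adjusted p = 0.987) for SPRY1 and -0.071 (SE 0.26; edgeR adjusted p = 0.955) for SPRED1.

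SPRY2 ranged from 46.8 CPM through a median of 65.5 CPM to 127 CPM in midkine tumours, and from 59.8 CPM through 90.1 CPM to 139 CPM in vehicle tumours. SPRY4 ranged from 11.4 CPM through a median of 24.1 CPM to 39.8 CPM in midkine tumours, and from 15.9 CPM through 34.1 CPM to 42.0 CPM in vehicle tumours. For each of these genes 7 of 9 midkine libraries lay below the vehicle median, and none lay above the vehicle range. The log2 fold change was -0.28 (SE 0.23; edgeR adjusted p = 0.740) for SPRY2 and -0.36 (SE 0.27; edgeR adjusted p = 0.709) for SPRY4. Without midkine 3-2 these became -0.41 (SE 0.21) and -0.46 (SE 0.26), still short of the threshold. In vehicle 3, SPRY4 stood at 15.9 CPM while the next lowest vehicle library had 32.2 CPM. The exact permutation p of SPRY4 was 0.200 over all libraries. With 1 library left out it ran from 0.0450 without vehicle 3 to 0.349 without vehicle 5.

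ETV4 and ETV5, whose transcripts are sensitive readouts of fibroblast growth factor and ERK signalling in many embryonic tissues, had the lowest log2 fold changes of the 10. ETV4 ranged from 13.2 CPM through a median of 75.2 CPM to 243 CPM in midkine tumours, and from 43.5 CPM through 180.9 CPM to 270 CPM in vehicle tumours. All midkine libraries but 1 lay below the vehicle median, yet vehicle 3, at 43.5 CPM, lay below 8 of the 9. The means were 92.2 ± 65.9 CPM in midkine tumours and 174 ± 86.6 CPM in vehicle tumours (SD, n = 9 and n = 6), and the log2 fold change was -0.92 (SE 0.47; edgeR adjusted p = 0.542). The exact permutation p was 0.0903. With 1 library left out it ran from 0.0210 without vehicle 3 to 0.185 without vehicle 2-2, with 0.0336 without midkine 3-1. With libraries of 1 title number averaged it was 0.199. Within the 10 libraries with MYH4 reads the log2 fold change was -1.09 (SE 0.61; exact permutation p = 0.133).

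ETV5 ranged from 58.7 CPM through a median of 172 CPM to 396 CPM in midkine tumours, and from 194 CPM through 296 CPM to 567.96 CPM in vehicle tumours. Of the midkine libraries, 5 lay below the vehicle range and none above it. The means were 208 ± 131 CPM in midkine tumours and 327 ± 133 CPM in vehicle tumours (SD, n = 9 and n = 6). For ETV5 the log2 fold change was -0.65 (SE 0.40, edgeR adjusted p = 0.618), with an exact permutation p of 0.0841. With 1 library left out this p ran from 0.0426 without midkine 3-1 to 0.179 without vehicle 6, with 0.0466 without midkine 2. With libraries of 1 title number averaged the exact permutation p was 0.115. The log2 fold change was -0.53 (SE 0.37) without midkine 3-2, the lowest library for ETV5, and -0.42 without vehicle 6, the highest.

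**Figure D2:**
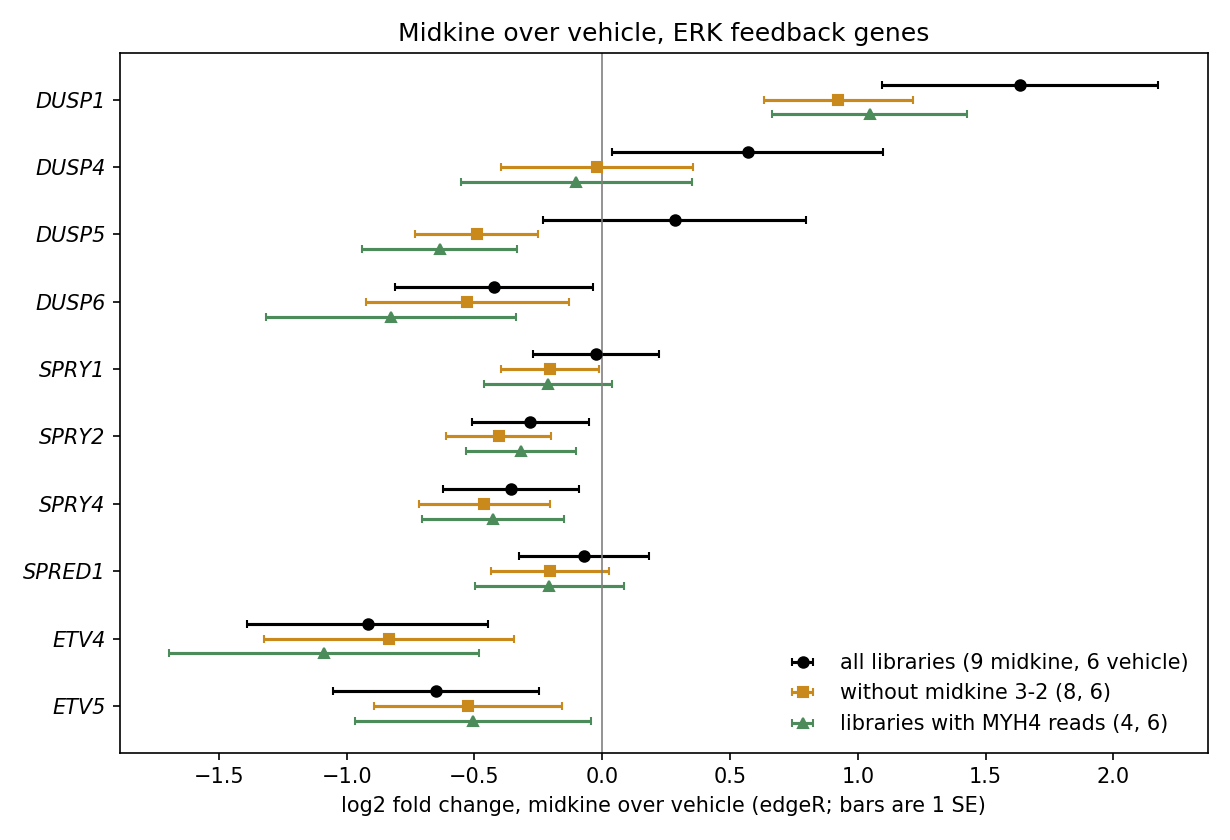
Log2 fold change of each gene, midkine over vehicle, from edgeR, with bars of 1 SE: all 15 libraries (black circles), without midkine 3-2 (orange squares) and the 10 libraries with MYH4 reads (green triangles). DUSP1 is above 0 in all 3 fits, at 1.63, 0.92 and 1.05, and DUSP5 lies on both sides of 0, at 0.28, -0.49 and -0.64.

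The genes also differed in how far libraries of 1 group lay apart. The SD of log2 CPM within groups was 1.08 for ETV4, 1.01 for DUSP4, 0.93 for DUSP1, 0.90 for DUSP5, 0.85 for ETV5 and 0.84 for DUSP6. These 6 lay above the median of 0.51 over all genes. The share of all genes with a smaller SD ran from 79.1% for DUSP6 to 88.5% for ETV4. The other 4 lay close to that median, between 0.45 for SPRY2 and 0.54 for SPRY4. Particular libraries carried much of this spread. Midkine 3-2 was the highest of the 15 libraries for 5 genes (DUSP1, DUSP4, DUSP5, SPRY1 and SPRED1) and the lowest for ETV5. Midkine 1 and midkine 5 were each among the 3 lowest for 7 genes. Vehicle 6 was the highest for 3 genes, namely DUSP6, SPRY2 and ETV5.

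**Figure D3:**
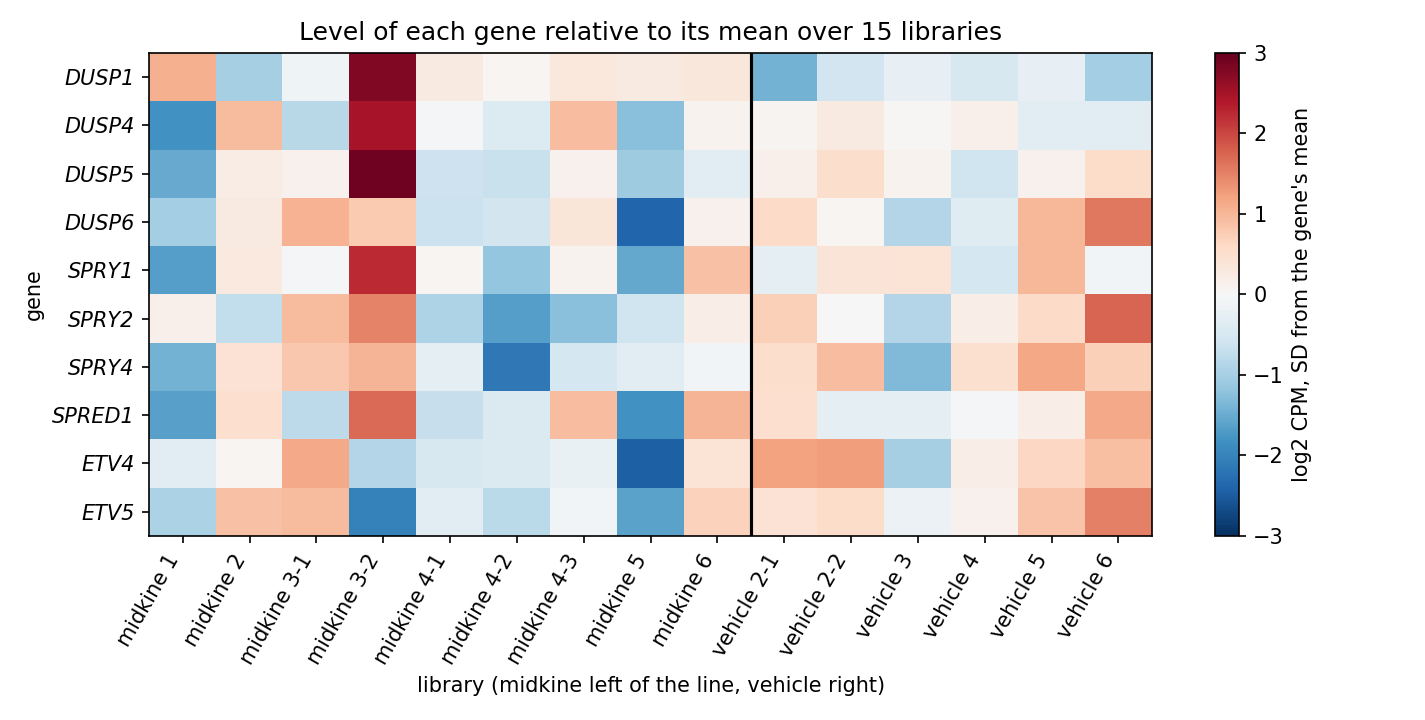
Level of each gene in each library as SD of log2 CPM from the mean of the gene over 15 libraries (colour), with 9 midkine libraries left of the line and 6 vehicle libraries right of it. Midkine 3-2 is a red column for all genes but ETV4 and ETV5, which are blue there, and midkine 1 and midkine 5 are mostly blue.

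Marker genes of the cells in the tissue moved with some of these libraries. The epithelial markers, 10 of 10 kept by the filter and none at 0 in any library, summed to between 2713 and 13493 CPM in midkine tumours and between 6134 and 8633 CPM in vehicle tumours, and epithelial transcripts were thus present in every tumour. The lowest epithelial sums were in midkine 1, midkine 5 and midkine 4-2, and the highest was in midkine 3-2. Of the 10 epithelial markers, 3 were higher and 7 lower in midkine tumours, with a median log2 fold change of -0.11. Without midkine 1, 5 were higher and 5 lower, with a median of 0.0011. Within the 10 libraries with MYH4 reads all 10 were lower, with a median of -0.53. The muscle markers, 10 of 10 kept, summed to between 36.1 and 362940 CPM in midkine tumours, with a median of 336 CPM, and to between 385 and 826 CPM in vehicle tumours, with a median of 537 CPM. Most midkine libraries thus lay below the vehicle range. All 10 fitted log2 fold changes were nonetheless above 0, with a median of 6.24. That size rested on midkine 1, without which 7 were above 0 and 3 below, with a median of 0.37. MYH4 was at 0 in some libraries. The fibroblast markers, 9 of 10 kept and all 9 higher, summed to between 333 and 144534 CPM in midkine tumours and between 542 and 10844 CPM in vehicle tumours, with the highest sum in midkine 5, and their median log2 fold change of 1.65 was 0.58 without it. COL1A2 was the marker not kept. The part of cell composition in the low levels of midkine 1 and midkine 5 was not tested. Without midkine 1 the log2 fold change was -0.33 for DUSP6, 0.067 for SPRY1, 0.019 for SPRED1, -0.88 for ETV4 and -0.57 for ETV5. Without midkine 5 it was -0.29 for DUSP6, 0.055 for SPRY1, 0.017 for SPRED1, -0.77 for ETV4 and -0.54 for ETV5. All 10 macrophage markers, summing to between 352 and 3032 CPM in midkine tumours and between 257 and 778 CPM in vehicle tumours, were higher in midkine tumours. So were all 10 T cell markers, which summed to between 38.9 and 1649 CPM in midkine tumours and between 37.4 and 109 CPM in vehicle tumours. Both sums were highest in midkine 4-2. Within the 10 libraries with MYH4 reads, 7 T cell markers were higher and 3 lower. Their median log2 fold change was 0.12 there, against 2.53 over all 15 libraries. All 10 macrophage markers stayed higher in that setting, but their median was 0.17, against 1.16 over all 15 libraries. The B cell markers, none of which was kept by the filter, reached a sum of 664 CPM in midkine 4-2 and at most 1.26 CPM in vehicle tumours. All 10 endothelial markers were higher, with sums of 246 to 1165 CPM in midkine tumours and 210 to 490 CPM in vehicle tumours. The 4 adipocyte markers kept of 8 were higher as well, while the basal cell markers (2 of 8 higher, 6 lower) and the proliferation markers (2 of 8 higher, 6 lower) were mixed. The proliferation split turned on single libraries. All 8 were higher without vehicle 3, with a median of 0.17, and all 8 lower without vehicle 6, with a median of -0.19. The part of all these cells and of proliferation in the values of the feedback genes was not tested.

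Other genes of the pathway were described by lists of the same kind. The other dual-specificity phosphatases were higher in midkine tumours for 8 of the 9 tested, with a median log2 fold change of 0.98 against 0.040 over all genes, and none passed the adjusted threshold in edgeR. Without midkine 3-2 this list had 5 higher of 8 tested and a median of 0.18. Without midkine 1 and 3-2 together, 3 were higher and 5 lower, with a median of -0.14. Within the 10 libraries with MYH4 reads, 6 were higher and 2 lower, with a median of 0.55. DUSP2, a nuclear ERK phosphatase of immune cells, ranged from 4.52 CPM through a median of 11.1 CPM to 115 CPM in midkine tumours, and from 2.24 CPM through 3.74 CPM to 7.93 CPM in vehicle tumours. Its log2 fold change was 2.72 (SE 0.82; edgeR adjusted p = 0.399, DESeq2 adjusted p = 0.0341), and within the 10 libraries with MYH4 reads it was 0.67 (SE 0.43). Its 2 highest libraries, midkine 3-2 at 115 CPM and midkine 4-2 at 88.0 CPM, were also those with the 2 highest T cell marker sums, and the part of T cells was not tested. DUSP3 had a log2 fold change of 1.16 (SE 0.53), with 410 CPM in midkine 1, and of 0.35 without that library. Of the 4 tested relatives of the Sprouty, SPRED and PEA3 genes, 1 was higher and 3 were lower, with a median of -0.29, or -0.17 without midkine 1. ETV1, the third PEA3 factor, had a log2 fold change of -0.42 (SE 0.36; edgeR adjusted p = 0.756), and IL17RD, a membrane inhibitor of fibroblast growth factor signalling, one of -1.08 (SE 0.52), or -0.49 without vehicle 6.

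The kinases and adaptors of the cascade itself had small fold changes. In this list 15 of the 16 tested were higher and 1 lower in midkine tumours, with a median log2 fold change of 0.19. None passed the adjusted threshold, and 12 were higher without midkine 1. The split also depended on the scaling: by library totals alone 8 were higher and 8 lower, with a median of 0.0098. With the title number as a replicate block 10 were higher and 6 lower, with a median of 0.084. GRB2, the adaptor that links receptors to RAS activation, had a log2 fold change of 0.56 (SE 0.23; edgeR adjusted p = 0.442), and RPS6KA3, a kinase that ERK activates, one of 0.61 (SE 0.26; edgeR adjusted p = 0.453). Among the other outputs and brakes, 9 of 14 tested were higher and 5 lower, with a median of 0.085, whereas without midkine 3-2 only 4 were higher and 10 lower, with a median of -0.33. Without vehicle 3 and without vehicle 4 the median was 0.011 and 0.015. CCND1, the cyclin D1 gene that drives entry into the cell cycle, averaged 584 ± 253 CPM in midkine tumours and 1000.4 ± 248 CPM in vehicle tumours (SD, n = 9 and n = 6), with a log2 fold change of -0.78 (SE 0.27; edgeR adjusted p = 0.399). FOSL1, an AP-1 subunit whose level follows ERK activity, ranged from 1.43 CPM through a median of 7.92 CPM to 505 CPM in midkine tumours, and from 2.49 CPM through 5.57 CPM to 7.73 CPM in vehicle tumours. Its log2 fold change of 3.51 (SE 1.29) was 0.41 without midkine 3-2, the library that held the 505 CPM.

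The immediate early genes were higher in midkine tumours for 15 of 18, with a median log2 fold change of 0.70, and none passed the adjusted threshold in edgeR. Without midkine 3-2, 11 of 18 were higher and the median was 0.15. Their summed level was 7930 CPM in midkine 3-2, beside 1494 to 2307 CPM in the other midkine libraries and 1336 to 2150 CPM in vehicle libraries. KLF4, a Krüppel-like transcription factor, ranged from 31.3 CPM through a median of 62.1 CPM to 199 CPM in midkine tumours, and from 11.1 CPM through 30.5 CPM to 41.0 CPM in vehicle tumours. Its log2 fold change was 1.65 (SE 0.44; edgeR adjusted p = 0.399, DESeq2 adjusted p = 0.0348). KLF2, a related factor, had one of 2.13 (SE 0.65; edgeR adjusted p = 0.399, DESeq2 adjusted p = 0.0473). KLF2 held 146 CPM in midkine 4-2, the library with the highest T cell and macrophage marker sums. Without that library its log2 fold change was 1.55, and the part of immune cells was not tested. FOS and EGR1, which serum and growth factors induce within minutes, were at 0.15 (SE 0.42) for FOS and -0.33 (SE 0.46) for EGR1 on the log2 scale. Of the receptor tyrosine kinases, 11 of 18 were higher and 7 lower, with a median of 0.083, whereas without midkine 3-2 only 6 were higher and 12 lower, with a median of -0.23. No other single library took this median below 0. FGFR4, a fibroblast growth factor receptor, had a log2 fold change of 2.26 (SE 0.79) and held 25.5 CPM in midkine 1, without which it was 1.36. ERBB2, the HER2 receptor, averaged 70.7 ± 23.7 CPM in midkine tumours and 110.3 ± 26.6 CPM in vehicle tumours (SD, n = 9 and n = 6), with a log2 fold change of -0.64 (SE 0.23; edgeR adjusted p = 0.399).

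Levels of several feedback genes followed each other across the tumours, while DUSP1 ran opposite to ETV5. Over the 45 pairs of the 10 genes, the median Pearson r of log2 CPM across 15 libraries was 0.42, beside -0.0046 over all pairs of genes. Of the 45 pairs, 14 passed an adjusted permutation p of 0.05 (Benjamini-Hochberg over the 45), 13 of them with r above 0. By Spearman's rho 13 passed, and 11 passed by both. How many pairs of other genes would pass the same test was not computed. Whether 14 of 45 is particular to these genes was thus not tested. The libraries share scaling, and some may share an animal. After averaging libraries that share a title number, 14 pairs passed over 11 units, 10 of them shared with the 14 above. The 4 that no longer passed were DUSP1 with ETV5, DUSP6 with SPRY2, DUSP6 with SPRY4 and SPRY2 with SPRY4. Leaving out midkine 3-2 brought the count to 26 and the median r to 0.60. Within the midkine group 7 pairs passed, and within the vehicle group 0 did (exact permutation over 6 libraries, with 5 at an unadjusted p under 0.05). With 6 libraries no pair could pass the adjusted threshold on its own, so these counts cannot be compared between groups. The smallest adjusted exact permutation p in the vehicle group was 0.0938, for DUSP6 with ETV5 and for SPRY2 with SPRED1.

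**Figure D4:**
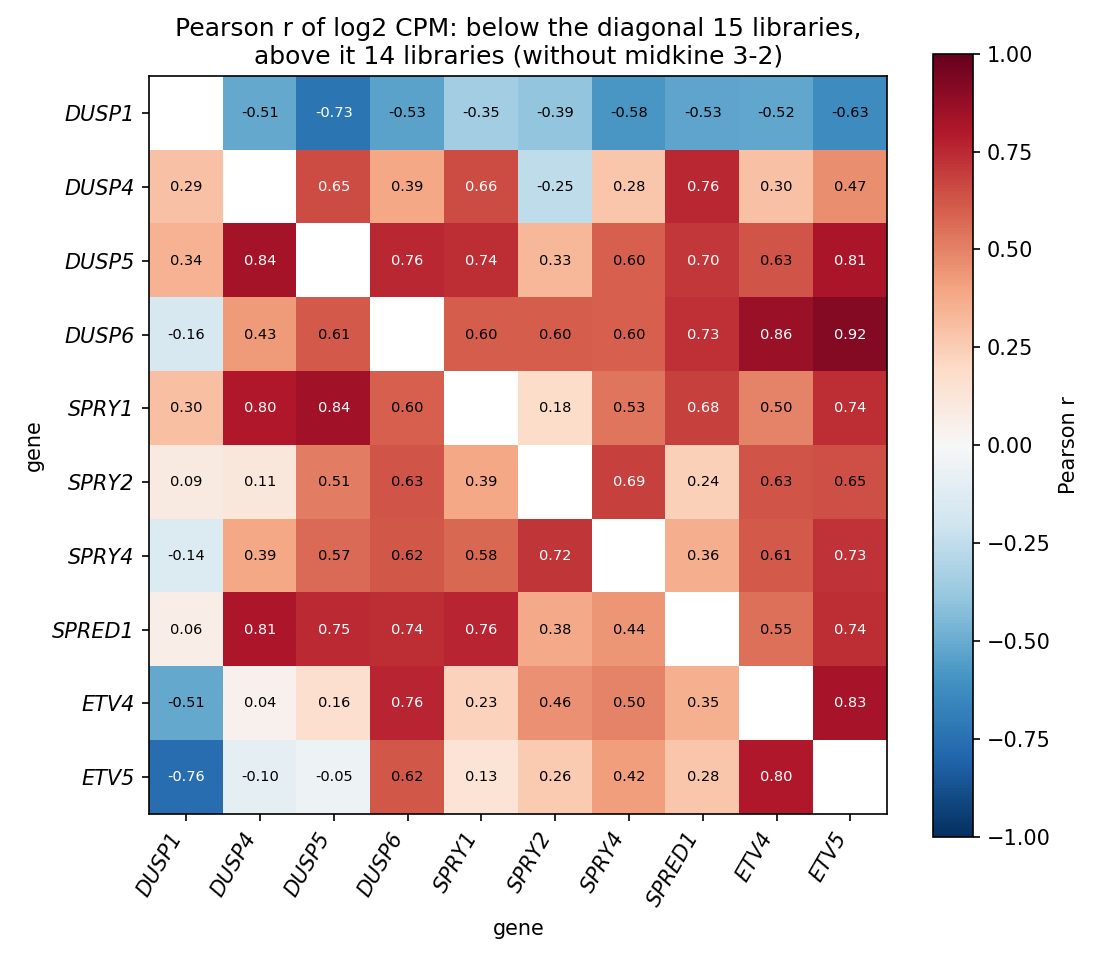
Pearson r of log2 CPM for each pair of genes: below the diagonal over all 15 libraries, above it over 14 libraries without midkine 3-2. Without midkine 3-2 the DUSP1 row is below 0 throughout, from -0.73 to -0.35, and 35 of the other 36 pairs are above 0.

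ETV4 and ETV5, the PEA3 factors, gave r = 0.80 and rho = 0.79 (permutation p = 0.00029 and 0.00091, adjusted p = 0.00405 and 0.0223). Without midkine 5 and vehicle 2-2, the libraries farthest from the ETV4 median, r was 0.78, and it was 0.81 within the 10 libraries with MYH4 reads. DUSP6 and ETV5 gave r = 0.62 and rho = 0.67 (permutation p = 0.0130 and 0.00786, adjusted p = 0.0419 and 0.0393). Its r was 0.34 without midkine 5 and vehicle 6, the libraries farthest from the DUSP6 median. With midkine 3-2 included, as it was there, r thus depended on those 2 libraries. Without midkine 3-2, where DUSP6 was at 355 CPM and ETV5 at its lowest, r was 0.92, and within the 10 libraries with MYH4 reads it was 0.95. Within the midkine group r was 0.48 and within the vehicle group 0.96.

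DUSP4, DUSP5, SPRY1 and SPRED1 are, beside DUSP1, the genes for which midkine 3-2 was the highest library, and their correlations rested largely on midkine 1 and 3-2. All 6 pairs among them passed the threshold over 15 libraries, but without midkine 1 and 3-2 only 1 did, DUSP4 with SPRED1, and r ranged from 0.44 to 0.67. DUSP5 and SPRY1 gave r = 0.84 and rho = 0.56 (permutation p = 0.00015 and 0.0316, adjusted p = 0.0036 and 0.0790). DUSP4 and SPRED1 gave r = 0.81 and rho = 0.72 (permutation p = 0.00016 and 0.00325, adjusted p = 0.0036 and 0.0252). Without those libraries, which were also the farthest from the medians of DUSP4 and DUSP5, r was 0.61 for DUSP5 and SPRY1 (adjusted permutation p = 0.0669), 0.67 for DUSP4 and SPRED1 (0.0455), 0.44 for DUSP4 and DUSP5 (0.183) and 0.49 for DUSP4 and SPRY1 (0.135). Within the vehicle group r was 0.41 for DUSP5 and SPRY1 and -0.67 for DUSP4 and SPRED1, so the second pair went the opposite way there (exact permutation, adjusted p = 0.486). DUSP5 and DUSP6, the nuclear and the cytoplasmic ERK phosphatase, gave r = 0.615 and rho = 0.78 (permutation p = 0.0214 and 0.00099, adjusted p = 0.0602 and 0.0223).

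DUSP1 and ETV5 gave the lowest r of the 45 pairs, at -0.76 with a rho of -0.66 (permutation p = 0.00063 and 0.00974, adjusted p = 0.00405 and 0.0438). Without midkine 3-2 and vehicle 2-1, the libraries farthest from the DUSP1 median, r was -0.69. After averaging libraries that share a title number r was also -0.69, and the call was lost (adjusted permutation p = 0.0549). Within the 10 libraries with MYH4 reads it was -0.65 (adjusted permutation p = 0.0807), within the midkine group -0.74 (exact permutation, adjusted p = 0.0570) and within the vehicle group -0.37, so the sign held in each and the call did not. Over 15 libraries DUSP1 had an r below 0 with 4 of the 9 other genes. Without midkine 3-2 it had an r below 0 with all 9, among which only those with DUSP5 (-0.73, adjusted permutation p = 0.0123) and ETV5 (-0.63, adjusted permutation p = 0.0356) passed the threshold. Within the 10 libraries with MYH4 reads r with DUSP1 was also below 0 for all 9 genes, from -0.80 to -0.30. Within the midkine group, midkine 3-2 included, 2 of the 9 were below 0, and within the vehicle group 8 of the 9.

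**Figure D5:**
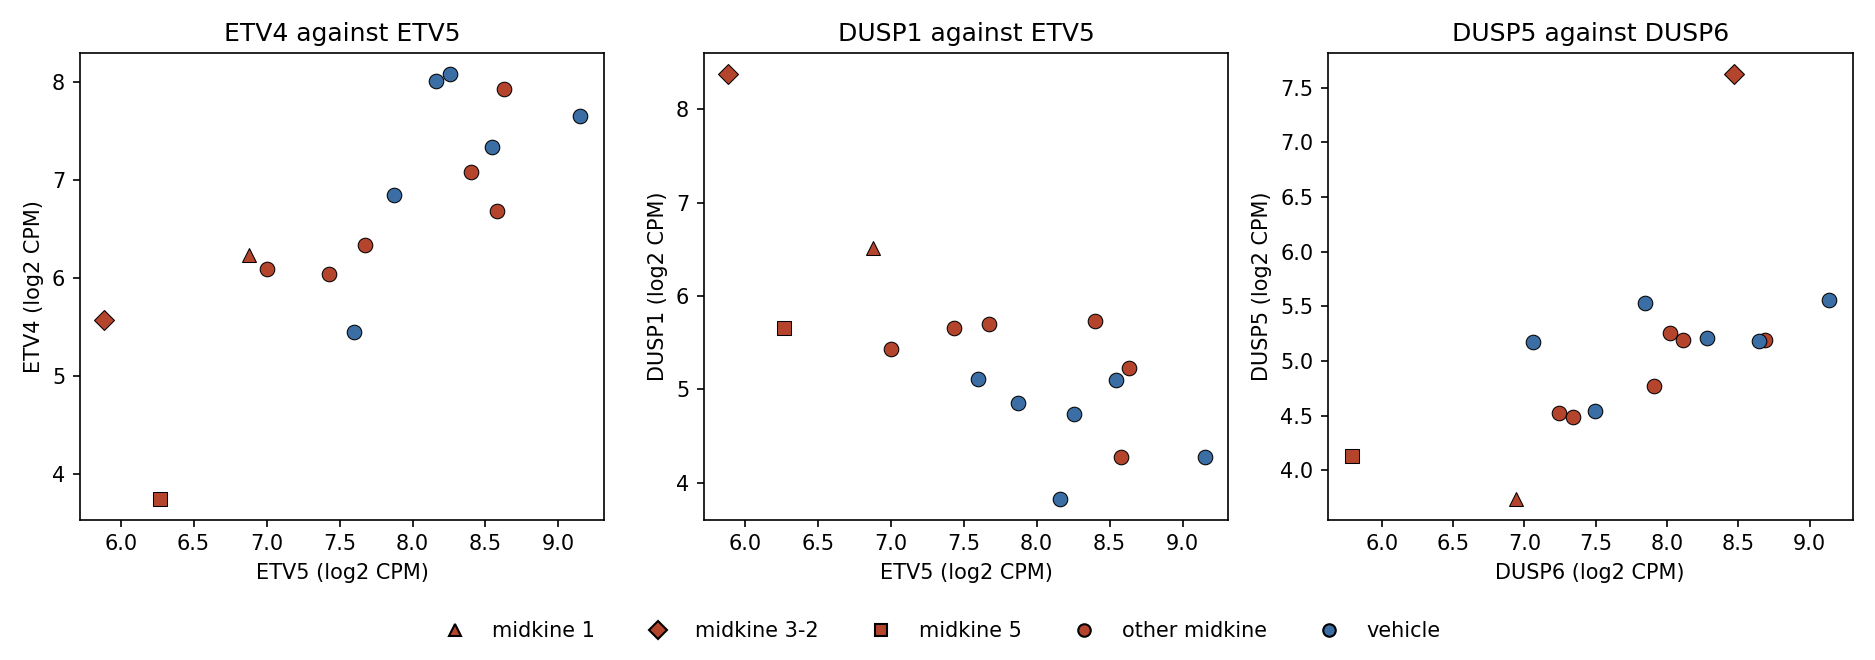
Log2 CPM of ETV4 against ETV5 (left), DUSP1 against ETV5 (middle) and DUSP5 against DUSP6 (right) in 9 midkine libraries (red; triangle midkine 1, diamond midkine 3-2, square midkine 5) and 6 vehicle libraries (blue). ETV4 and ETV5 lie along a line (r = 0.80), DUSP1 and ETV5 run opposite ways (r = -0.76), and midkine 3-2 lies above the other libraries for DUSP5.

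For 4 of the genes, the 3 genes most like them were taken from 11436 others by Pearson r over the 15 libraries, as a description. For DUSP1 these were OSER1 (r = 0.93), KLF6 (0.92) and HBEGF (0.91), the last encoding a ligand of the EGF receptor, and without midkine 3-2 their r was 0.81, 0.79 and 0.81. KLF6, an immediate early gene, averaged 274 ± 300.2 CPM in midkine tumours and 131 ± 30.4 CPM in vehicle tumours (SD, n = 9 and n = 6) and held 1067 CPM in midkine 3-2. For DUSP6 they were ACE (0.93), PMEPA1 (0.91) and ITGA3 (0.90). For SPRY4 they were TAX1BP3 (0.88), SYT5 (0.84) and RHBDF1 (0.83). For ETV4 they were DLX3 (0.96), MFSD2A (0.95) and SERPINE2 (0.92), and without midkine 3-2 their r was 0.97, 0.96 and 0.92.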

How the data were processed

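Tumour RNA was poly(A)-selected and sequenced as 150-bp read pairs from 3000 ng of RNA per sample, per the labels' protocols. What the authors deposited is 1 table of raw read counts by gene symbol, without normalization, per the file headers. The submitters' processing notes name the build rn6; no source used here states the counting settings or strand, and overlapping genes or near-identical copies may therefore share reads. The table was analysed in R 4.3.3 with edgeR 4.0.16 (expression filter by group, TMM scaling, quasi-likelihood F test, Benjamini-Hochberg over 11665 genes). DESeq2 1.42.0 and limma 3.58.1 (voom) were run beside it, and pairs of genes were tested in Python 3.11.15 with 100000 permutations, or exactly under 10 libraries. Levels per sample are CPM on TMM-scaled totals, and log2 CPM has a prior count of 2. The exact permutation p is two-sided and unadjusted over the 10 genes. Tests were checked on simulated data.

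The 10 genes and all lists were chosen with earlier results of these data known. Named genes are the 10, up to 2 of smallest p from each pathway list, the 3 most like DUSP1, DUSP6, SPRY4 and ETV4, and MYH4; FOS, EGR1 and the numbers for KLF6 were added after their values were seen. Leaving out each library for the pairs and the exact tests, the fits without midkine 1 and 3-2 together, and the alternatives for the other lists were chosen after seeing the data. All libraries of a group differed by far more than counting error (smallest chi-square over its degrees of freedom 20.3). Same title numbers did not pair midkine with vehicle libraries (correlations of deviations between -0.24 and 0.14). Promoter windows come from RefSeq on GRCr8.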

Additional observations from a re-analysis of the deposited data

Results flagged for a closer look

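Among the 10 genes in each of the 2 groups, 20 sets of values were looked at for a library far from the rest. Chance flags about 1 in 20 of such sets where values follow a normal distribution. The values here were CPM without log, for which that rate need not hold. Midkine 3-2 was far above the other midkine libraries for 3 phosphatases, and these flags, from 1 library, are not independent. It held 332 CPM of DUSP1, with 91.2 CPM in the next library, 79.6 CPM of DUSP4, with 28.2 CPM in the next, and 197 CPM of DUSP5, with 38.0 CPM in the next. SPRY4 in vehicle 3, at 15.9 CPM, was far below the other vehicle libraries, the nearest of which had 32.2 CPM, and its gap over the range was just past the critical value (0.6251 against 0.625).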

How the results depend on the processing

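No setting called any of the 10 genes at an adjusted p under 0.05. DESeq2 called 92 genes in all and 11 genes of the other lists, where edgeR called none. DUSP4 had a log2 fold change of -0.10 in the 10 libraries with MYH4 reads and from -0.0201 to 0.73 with 1 library left out. DUSP5 had -0.45 in DESeq2, -0.14 in limma-voom with and without a correlation within title numbers, -0.64 in the libraries with MYH4 reads, -0.39 without midkine 1 and 3-2, and from -0.49 to 0.44 with 1 library left out. With 1 library left out, SPRY1 ranged from -0.21 to 0.0673 and SPRED1 from -0.20 to 0.0297. With the title number as a replicate block, a number the data do not support as a pairing, SPRY1 had 0.03, DUSP1 had 0.996 (SE 0.51) and none of the 10 was called. Of the 10 genes, 0 were at an exact p under 0.05 in the libraries with MYH4 reads and 0 to 3 with 1 library left out. Of the 45 pairs, 7 passed within midkine, and 11 to 26 with 1 library left out. Within vehicle 0 passed, where 6 libraries were too few for a pair to pass on its own. Within vehicle, r was -0.24 for DUSP4 and DUSP5, -0.38 for DUSP4 and SPRY1, -0.67 for DUSP4 and SPRED1, and -0.27 for SPRY1 and SPRED1. Except where a library was left out, the cause was not tested. Scaling by library totals alone moved the median log2 fold change of all genes to -0.10, against 0.040, with 7 of the 10 genes lower in either. With that scaling the cascade kinases and adaptors had 8 higher and 8 lower. The median was then -0.041 for the other outputs and brakes and -0.029 for the receptor tyrosine kinases. With 1 library left out, 5 to 9 of the 10 genes were lower. The lowest count of any of the 10 genes in a library was 17, for DUSP4 in midkine 1, and precision is poorest there.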
